A study of Mus musculus with 6 samples.

Results

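The 10 genes described here encode the glucocorticoid receptor and 9 genes that glucocorticoid hormone is known to switch on in skeletal muscle, measured in mice with and without *Tarsl2*, the gene of a threonyl-tRNA synthetase-like protein. They were chosen by name and role (*Nr3c1*, *Fkbp5*, *Tsc22d3*, *Klf9*, *Klf15*, *Zbtb16*, *Sgk1*, *Arrdc2*, *Ddit4* and *Cdkn1a*), and they are 10 of the 53084 genes listed in the deposited count table. All 10 passed the filter on low counts, which kept 15075 genes. The choice was made with results of this same comparison known, so the fold changes, p-values and counts of these 10 genes are a description of them and support nothing beyond it.

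Muscle RNA of 6 male C57BL/6 mice (C57BL/6J for the zygotes and crosses of the knockout line) aged 6 weeks was sequenced, with 1 library per mouse. The *Tarsl2*+/+ group held mice 583, 584 and 595, and the *Tarsl2*-/- group held mice 588, 589 and 591. All 6 mice were kept under specific-pathogen-free conditions on a standard chow, and the sources used here name no hormone or drug treatment. The *Tarsl2*-/- mice carried a germline deletion of a fragment with exon 3, made with CRISPR/Cas9 in fertilised eggs, so the gene was cut in every tissue, and what muscle lost cannot be told apart from what other organs lost. Which muscle was taken, the hour of sampling, the feeding state and the level of corticosterone, the glucocorticoid of mice, are not given in the sources used here.

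Glucocorticoids reach muscle from the adrenal gland and bind a receptor that waits in the cytoplasm with heat-shock protein chaperones. The bound receptor enters the nucleus, attaches to DNA as a dimer and raises transcription of genes that restrain inflammation, slow protein synthesis and release amino acids from muscle protein. Several of the same genes also answer to fasting, insulin, the circadian clock and, for *Cdkn1a*, to p53, so none of them reads out the hormone alone.

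Totals of 16176591 to 20123767 counts per library were behind these values, and levels are given as CPM, counts scaled to the library total after TMM correction for differences in library make-up. *Tarsl2* itself had 456, 605 and 464 counts in the *Tarsl2*+/+ libraries and 40, 30 and 37 in the *Tarsl2*-/- libraries, a log2 fold change of -3.81 (SE 0.16) with an adjusted p of 6.45e-07 (Benjamini-Hochberg) by the quasi-likelihood test of edgeR, so each library matched its label. All 11 markers of muscle fibres were detected, at 78000 to 85356 CPM in sum in *Tarsl2*+/+ and 77439 to 91342 CPM in *Tarsl2*-/- mice, and 2 of the 11 were called higher by edgeR, *Myh1* (log2 fold change 0.59, adjusted p 0.0150) and *Ckm* (0.49, adjusted p 0.0433). The extraction text in the labels speaks of retina, but no retinal marker exceeded 7 counts in any library, and *Pde6b*, *Crx* and *Nrl* were at 0 in all 6. The 13 leukocyte markers summed to 1150 to 1395 CPM in *Tarsl2*+/+ and to 593 to 769 CPM in *Tarsl2*-/- mice. Of the 12 of them tested, 6 passed the test as lower and all 12 had negative log2 fold changes, with a median of -1.23, and no leukocyte marker was at 0. The summed markers of red blood cells were at 4748 to 10392 CPM against 4166 to 4536 CPM, those of endothelium at 130 to 147 against 101 to 127 CPM (1 of 6 called lower, *Cdh5*, log2 fold change -0.64, edgeR's adjusted p 0.00929), those of fibroblasts at 8433 to 9957 against 7167 to 8337 CPM, and those of Schwann cells at 178 to 190 against 132 to 224 CPM. The 6 adipocyte markers summed to 1198 to 1927 CPM in *Tarsl2*+/+ mice and to 1265, 3726 and 1326 CPM in *Tarsl2*-/- mice 588, 589 and 591, so mouse 589 stood apart, and 0 of the 6 were called by edgeR or DESeq2 (1 higher and 1 lower at an unadjusted p under 0.05). Over all tested genes, edgeR called 0.896% higher and 1.37% lower, and 19.8% had an unadjusted p under 0.05. *Myh1*, *Ckm* and *Cdh5* were picked out once their values were known. In bulk RNA, fewer cells of a type and less RNA per cell cannot be told apart.

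The start regions of the 3 genes that rose are shown, beside the 1 *Sgk1* promoter that holds the full DNA motif of the receptor. RefSeq start sites on GRCm38.p6 matched 8 of the 10 genes with 16 promoters, and *Nr3c1* and *Zbtb16* were not matched. Each sequence is the 250 bases before the start site, on the strand of the gene, from 5′ to 3′, and capitals mark matches to the palindromic glucocorticoid response element (AGAACA, any 3 bases, TGTTCT), the E-box of clock and related factors (CACGTG) and the FoxO motif (GTAAACA).
*Sgk1*, chr10:21993640-21993889, plus strand: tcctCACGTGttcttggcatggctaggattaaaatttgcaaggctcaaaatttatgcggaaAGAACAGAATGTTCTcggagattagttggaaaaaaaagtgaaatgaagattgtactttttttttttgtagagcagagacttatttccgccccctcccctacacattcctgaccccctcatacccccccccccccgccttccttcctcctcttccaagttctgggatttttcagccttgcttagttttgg
*Klf15*, chr6:90462326-90462575, plus strand: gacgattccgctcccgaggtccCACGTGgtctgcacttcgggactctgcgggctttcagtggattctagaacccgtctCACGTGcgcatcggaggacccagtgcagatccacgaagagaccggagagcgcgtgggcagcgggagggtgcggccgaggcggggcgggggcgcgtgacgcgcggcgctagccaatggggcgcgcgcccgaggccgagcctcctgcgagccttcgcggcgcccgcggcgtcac
*Klf9*, chr19:23140976-23141225, plus strand: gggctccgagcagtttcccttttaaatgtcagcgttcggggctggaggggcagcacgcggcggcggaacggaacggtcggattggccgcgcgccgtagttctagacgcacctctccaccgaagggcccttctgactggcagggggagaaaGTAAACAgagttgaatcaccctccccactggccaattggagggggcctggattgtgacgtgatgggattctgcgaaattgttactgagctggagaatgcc
*Arrdc2*, chr8:70839721-70839970, minus strand: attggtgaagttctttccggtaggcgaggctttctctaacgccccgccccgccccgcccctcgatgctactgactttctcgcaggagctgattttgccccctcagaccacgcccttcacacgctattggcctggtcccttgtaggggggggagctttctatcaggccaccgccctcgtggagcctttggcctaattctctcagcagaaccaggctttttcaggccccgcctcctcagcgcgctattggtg
Both strands were searched over the 250 bases of each of 32851 promoters. The full glucocorticoid response element was in 3 of them (0.00913%), of which this *Sgk1* promoter was 1, with the element running from 189 to 175 bases before the start. It was in 1 of the 16 promoters here, so the other *Sgk1* promoters lacked it. Its 6-base arm AGAACA, which also lies inside the full element on either strand, was in 16.1% of all promoters and in 4 of the 16 promoters here, all of *Sgk1* or *Tsc22d3*. The E-box was in 6.02% of all promoters and in 3 of the 16, at 228 and 172 bases before the *Klf15* start, 246 before this *Sgk1* start and 169 before an *Fkbp5* start. The FoxO motif was in 3.17% of all promoters and in 1 of the 16, at 100 bases before the *Klf9* start. The *Arrdc2* promoter held none of these motifs, and the cyclic AMP response element TGACGTCA was in 1.55% of all promoters and in none of the 16. A match describes letters in this window and is not a bound site. Imperfect full elements and sites outside the window were not searched, so a missing match does not mean a missing site.

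The comparison of genotypes asked which genes of the hormone response differ in muscle that lacks *Tarsl2*. *Arrdc2*, *Klf15* and *Klf9* rose in *Tarsl2*-/- muscle, and none of the 10 genes fell. The receptor gene *Nr3c1* and the targets *Fkbp5*, *Tsc22d3*, *Zbtb16*, *Sgk1*, *Ddit4* and *Cdkn1a* did not pass the test. So 3 of 10 genes were called higher and 0 lower by edgeR, beside 0.896% of all tested genes called higher and 1.37% lower, 2.27% in either direction. DESeq2 also called 3 higher and 0 lower, beside 2.14% and 2.82% of the genes it tested, 4.96% in either direction. An unadjusted p under 0.05 was found for 4 of the 10, all higher, beside 9.57% of all tested genes as higher and 10.2% as lower, 19.8% in all. In 4 of the 10 genes, *Arrdc2*, *Klf15*, *Klf9* and *Cdkn1a*, every *Tarsl2*-/- library was above every *Tarsl2*+/+ library, which held for 12.6% of all tested genes, and nothing is read from these shares since the choice knew the comparison. The median log2 fold change of the 10 genes was 0.078, beside 0.00253 for all tested genes. An exact two-sided permutation test of 3 libraries against 3 cannot give a p under 0.1, so single genes rest on the fit across all genes.

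**Figure D1:**
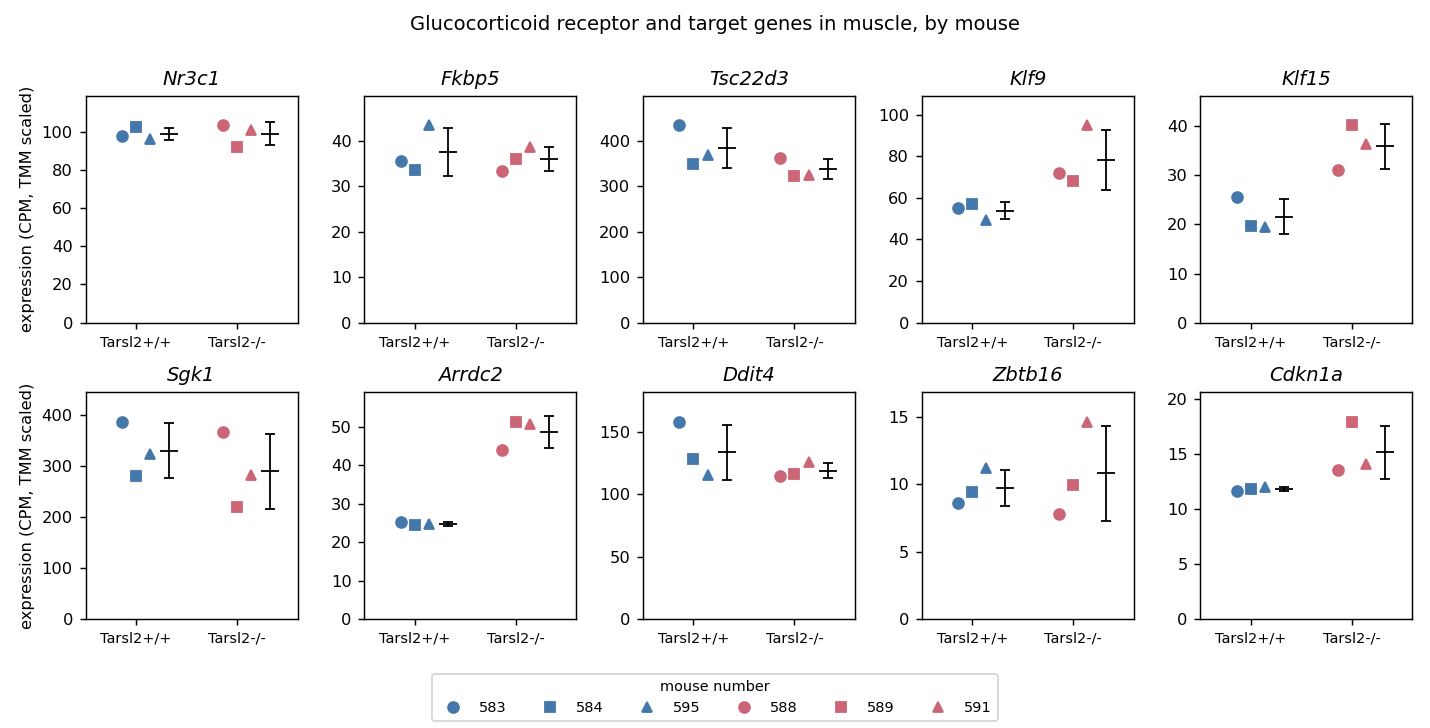
Expression of each of the 10 genes (y axis, CPM after TMM scaling, from 0) in *Tarsl2*+/+ (blue) and *Tarsl2*-/- (red) mice, 1 symbol per mouse, with black lines for the mean ± SD of 3 mice. The red symbols lie above all blue symbols for *Klf9*, *Klf15*, *Arrdc2* and *Cdkn1a* and mix with them for the other genes.

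*Nr3c1* (ENSMUSG00000024431, chr18:39410545-39491301, minus strand) encodes the receptor. It was at 97.8, 102 and 96.3 CPM in *Tarsl2*+/+ mice 583, 584 and 595 and at 104, 92.3 and 101 CPM in *Tarsl2*-/- mice 588, 589 and 591. The lowest and the highest value of all 6 were both in *Tarsl2*-/- mice, and the groups overlapped. The means were 98.9 ± 3.18 and 99.0 ± 5.92 CPM (SD, n = 3 each), and the 95% confidence interval of the log2 fold change ran from -0.18 to 0.19, with an adjusted p of 0.993 by edgeR. The receptor transcript thus had the narrowest interval of the 10 genes and no shift beyond the spread between mice.

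*Fkbp5* (ENSMUSG00000024222, chr17:28399095-28517524, minus strand) encodes a co-chaperone that lowers the hormone affinity of the receptor and is itself induced by it, a short feedback loop. It was at 35.5, 33.5 and 43.5 CPM in *Tarsl2*+/+ mice and at 33.4, 36.1 and 38.6 CPM in *Tarsl2*-/- mice. The highest value was in *Tarsl2*+/+ mouse 595 and the lowest in *Tarsl2*-/- mouse 588, and the groups overlapped. Its log2 fold change was -0.057 (SE 0.11, 95% interval -0.30 to 0.19) with an adjusted p of 0.827 by edgeR, and without *Tarsl2*+/+ mouse 595, which had the highest level, it was 0.062.

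*Tsc22d3* (ENSMUSG00000031431, chrX:140539528-140600659, minus strand) encodes GILZ, a leucine-zipper protein that carries much of the anti-inflammatory action of glucocorticoids. It was at 434, 350 and 370 CPM in *Tarsl2*+/+ and at 363, 324 and 326 CPM in *Tarsl2*-/- mice. Mouse 583 was the highest of the 6, and *Tarsl2*-/- mouse 588 lay above *Tarsl2*+/+ mouse 584, so the groups overlapped. A log2 fold change of -0.19 was fitted (SE 0.10, 95% interval -0.42 to 0.040, edgeR's adjusted p 0.346). Leukocytes also express *Tsc22d3*, and their markers were lower in *Tarsl2*-/- mice by the values given above; their part in this value was not tested.

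*Klf9* (ENSMUSG00000033863, chr19:23141226-23166911, plus strand) encodes a zinc-finger transcription factor that glucocorticoids induce in many tissues. It was at 55.1, 57.1 and 49.6 CPM in *Tarsl2*+/+ and at 72.0, 68.2 and 95.0 CPM in *Tarsl2*-/- mice, and the groups did not overlap. Mouse 591 stood above the other *Tarsl2*-/- mice, which gave that group an SD of 14.5 around a mean of 78.4 CPM, against 53.9 ± 3.90 CPM (n = 3 each). *Klf9* rose by a log2 fold change of 0.54 (SE 0.12, 95% interval 0.27 to 0.81), close to the threshold with an adjusted p of 0.0468 by edgeR. The call was lost without *Tarsl2*+/+ mouse 583 (log2 fold change 0.55, adjusted p 0.143) or 595 (0.48, adjusted p 0.163) and without *Tarsl2*-/- mouse 588 (0.60, adjusted p 0.0687) or 591 (0.38, adjusted p 0.113), and also with limma-voom (adjusted p 0.0513) and upper quartile scaling in edgeR (adjusted p 0.0573).

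*Klf15* (ENSMUSG00000030087, chr6:90462576-90475238, plus strand) encodes a related zinc-finger factor that turns on branched-chain amino acid breakdown in muscle. It was at 25.7, 19.6 and 19.6 CPM in *Tarsl2*+/+ and at 31.2, 40.2 and 36.5 CPM in *Tarsl2*-/- mice. The lowest *Tarsl2*-/- mouse, 588, was above the highest *Tarsl2*+/+ mouse, 583. Mouse 589, the highest, also had the highest adipocyte markers, and the part of adipocytes in this value was not tested. The means were 21.6 ± 3.51 and 36.0 ± 4.56 CPM (SD, n = 3 each), and *Klf15* rose by a log2 fold change of 0.74 (SE 0.13, 95% interval 0.45 to 1.02), with an adjusted p of 0.0174 by edgeR. Leaving out 1 mouse moved the log2 fold change between 0.65 and 0.87, and the call was lost without *Tarsl2*+/+ mouse 595 (0.67, edgeR's adjusted p 0.0721) and without *Tarsl2*-/- mouse 589 (0.65, adjusted p 0.0609) or 591 (0.72, adjusted p 0.0657).

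*Zbtb16* (ENSMUSG00000066687, chr9:48654297-48836222, minus strand) encodes PLZF, a transcriptional repressor with a BTB domain. It was at 8.59, 9.46 and 11.2 CPM in *Tarsl2*+/+ and at 7.80, 9.98 and 14.6 CPM in *Tarsl2*-/- mice. The lowest and the highest value were both in *Tarsl2*-/- mice, and the coefficient of variation there, 32.3%, was the highest of the 10 genes. The log2 fold change of 0.15 (SE 0.20, 95% interval -0.29 to 0.60, edgeR's adjusted p 0.726) became -0.14 without mouse 591.

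*Sgk1* (ENSMUSG00000019970, chr10:21882184-21999903, plus strand) encodes a kinase that insulin signalling activates and that acts on ion transport and on muscle mass. It was at 386, 280 and 323 CPM in *Tarsl2*+/+ and at 366, 220 and 282 CPM in *Tarsl2*-/- mice. Both groups spread widely, with mouse 583 the highest and mouse 589 the lowest, and they overlapped. *Sgk1* had a log2 fold change of -0.19 (SE 0.17, 95% interval -0.56 to 0.18, edgeR's adjusted p 0.587), so it did not pass the test.

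*Arrdc2* (ENSMUSG00000002910, chr8:70835129-70839720, minus strand) encodes an alpha-arrestin, a family of adaptors that bring ubiquitin ligases to membrane proteins. It was at 25.3, 24.4 and 24.7 CPM in *Tarsl2*+/+ mice and at 43.9, 51.3 and 50.7 CPM in *Tarsl2*-/- mice. The 3 *Tarsl2*+/+ mice had nearly the same level, and the groups were far apart. The means were 24.8 ± 0.453 and 48.6 ± 4.09 CPM (SD, n = 3 each), a 1.96-fold rise. The difference, a log2 fold change of 0.97 (SE 0.092, 95% interval 0.77 to 1.17), had an adjusted p of 0.000588 by edgeR, rank 8 by p among the 15075 genes tested. It stayed past the threshold in each of the 6 fits that left out 1 mouse, at 0.93 to 1.04.

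*Ddit4* (ENSMUSG00000020108, chr10:59949669-59951834, minus strand) encodes REDD1, which holds back the growth kinase mTORC1. It was at 158, 128 and 115 CPM in *Tarsl2*+/+ and at 115, 116 and 126 CPM in *Tarsl2*-/- mice. The *Tarsl2*+/+ mice covered a wide range with mouse 583 at the top, the *Tarsl2*-/- mice a narrow one at its lower end, and the groups overlapped. *Ddit4* had a log2 fold change of -0.17 (SE 0.11, 95% interval -0.42 to 0.083, edgeR's adjusted p 0.452).

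*Cdkn1a* (ENSMUSG00000023067, chr17:29090979-29100722, plus strand) encodes p21, a brake on cell division that answers to p53 as well as to glucocorticoids. It was at 11.6, 11.9 and 12.0 CPM in *Tarsl2*+/+ and at 13.5, 18.0 and 14.1 CPM in *Tarsl2*-/- mice. The groups did not overlap, and mouse 589 was the highest. Its log2 fold change of 0.36 (SE 0.13, 95% interval 0.079 to 0.63) had an unadjusted p of 0.0162 and an adjusted p of 0.15 by edgeR, so it did not pass the test across all genes. A transcript annotated on the opposite strand shares 273 exon bases with *Cdkn1a*, and whether counting used strand is not given in the sources used here.

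**Figure D2:**
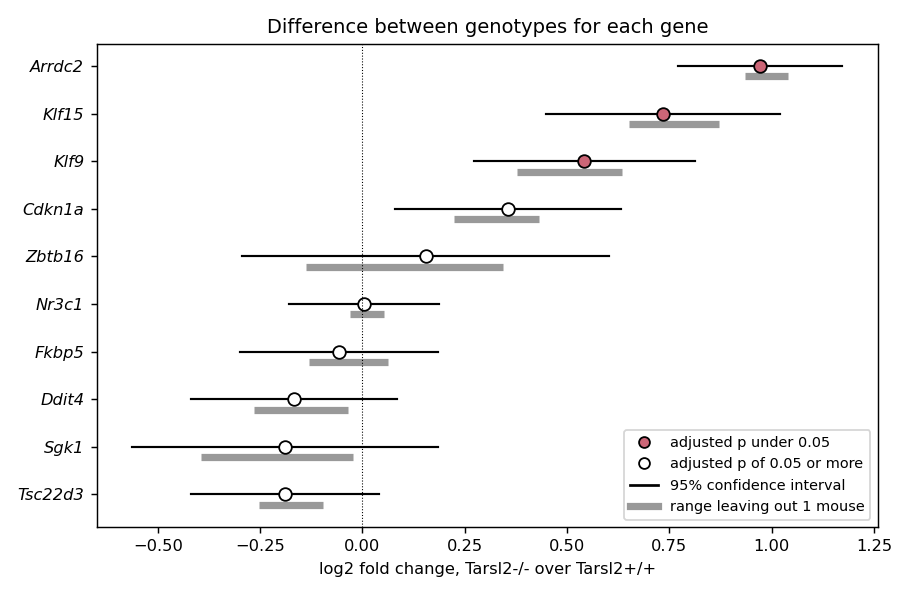
Log2 fold change of *Tarsl2*-/- over *Tarsl2*+/+ (x axis) for each gene (y axis), with the 95% confidence interval from edgeR as a black line and, as a grey bar, the range of the fits that each left out 1 mouse. *Arrdc2*, *Klf15* and *Klf9* are filled for an adjusted p under 0.05, and the grey bars of *Zbtb16*, *Nr3c1* and *Fkbp5* cross 0.

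Between genes, levels can be set side by side per kilobase of the gene length in the table. In *Tarsl2*+/+ muscle the mean order was *Tsc22d3* (88.6 CPM per kb), *Ddit4* (76.3), *Sgk1* (67.3), *Klf9* (16.5), *Nr3c1* (13.3), *Klf15* (7.75), *Arrdc2* (7.68), *Fkbp5* (5.89), *Cdkn1a* (5.33) and *Zbtb16* (1.84). The ranges over mice overlapped for the neighbours *Tsc22d3* and *Ddit4*, *Ddit4* and *Sgk1*, *Klf15* and *Arrdc2*, and *Fkbp5* and *Cdkn1a*. In *Tarsl2*-/- muscle *Arrdc2* (15.1 CPM per kb) and *Klf15* (12.9) stood at the level of the receptor gene (13.3), and *Klf9* was at 24.0 CPM per kb. The 3 genes that rose were thus neither the most nor the least abundant of the 10.

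**Figure D3:**
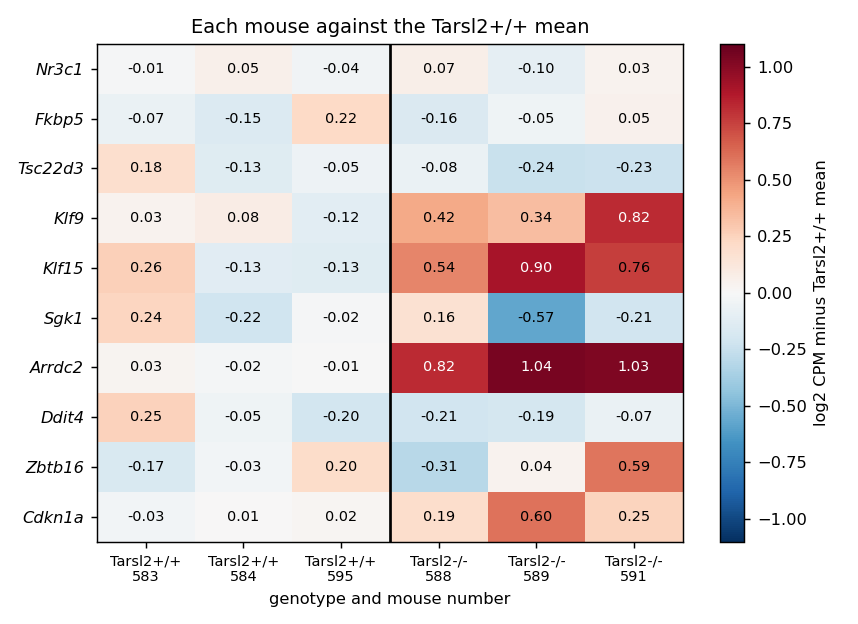
Difference of each mouse from the *Tarsl2*+/+ mean in log2 CPM (colour and printed value), with genes in rows and mice in columns and *Tarsl2*+/+ mice left of the black line. *Arrdc2* is at 0.82, 1.04 and 1.03 and *Klf15* at 0.54, 0.90 and 0.76 in mice 588, 589 and 591, whereas *Sgk1* runs from 0.16 to -0.57 in the same mice.

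The *Tarsl2*-/- mice did not order alike across the 10 genes. Mouse 591 had the highest *Klf9* and *Zbtb16*, mouse 589 the highest *Klf15*, *Arrdc2* and *Cdkn1a* but the lowest *Sgk1* and *Nr3c1*, and mouse 588 was the lowest of its genotype in 6 of the 10 genes. Among *Tarsl2*+/+ mice, 583 was the highest of its genotype in 5 of the 10 genes, *Tsc22d3*, *Sgk1* and *Ddit4* among them. The tested genes with the profile nearest to *Klf15* over the 6 libraries, among 8727 compared by Pearson correlation of log2 CPM, were *Ptges2* (0.99), *Retreg2* (0.99) and *Hoxa10* (0.98), and those nearest to *Fkbp5* were *Rpl9-ps6* (0.99), *Ldlrad4* (0.99) and an unnamed gene (0.98); these describe 6 points that share library scaling and are given without a test.

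The machinery that carries the hormone signal to the nucleus showed no call. Of 42 genes tested, 17 of receptor chaperones and import, 18 of coregulators and 7 of hormone access and the sister receptor, 0 were called in either direction by edgeR and 0 by DESeq2, beside 2.27% and 4.96% of all genes each tool tested. An unadjusted p under 0.05 was found for 3 as higher and 3 as lower, beside 19.8% of all tested genes in either direction. Their median log2 fold change was 0.00184, beside 0.00253 over all tested genes. *Hsd11b1*, the enzyme that regenerates active corticosterone inside cells, was at 25.9, 23.4 and 24.5 CPM in *Tarsl2*+/+ and 24.8, 19.8 and 22.8 CPM in *Tarsl2*-/- mice, with overlapping groups and a log2 fold change of -0.13 (edgeR's adjusted p 0.541). *Nr3c2*, the mineralocorticoid receptor that also binds glucocorticoids, was at 4.38, 4.99 and 4.57 CPM against 7.47, 4.55 and 5.44 CPM, with a log2 fold change of 0.33 (edgeR's adjusted p 0.389). *Hsd11b1* and *Nr3c2* were picked for mention after their values were seen.

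Of 53 other known glucocorticoid targets tested, 5 were called higher and 1 lower by edgeR, beside 0.896% and 1.37% of all tested genes. DESeq2 called 7 higher and 1 lower, beside 2.14% and 2.82%. Their median log2 fold change was 0.054. The list did not record whether the hormone raises or lowers each target, so these counts and this median may mix both kinds. This list and the other lists here were written with earlier results of these data known, so nothing is read from their shares. Among the 33 targets known from many tissues, *Pdk4*, *Per1* and *Angptl4* rose and *Nr1d1* fell. *Pdk4*, the kinase that shuts glucose carbon out of the mitochondrial citric acid cycle, was at 120, 121 and 115 CPM in *Tarsl2*+/+ and at 343, 249 and 288 CPM in *Tarsl2*-/- mice, far apart, with a log2 fold change of 1.30 (SE 0.12, edgeR's adjusted p 0.000464). *Per1*, a clock gene with a receptor-bound promoter, was at 34.8, 31.2 and 25.5 CPM against 46.2, 55.4 and 46.2 CPM, with no overlap and a log2 fold change of 0.69 (SE 0.12, edgeR's adjusted p 0.0174). The *Per1* call was lost without *Tarsl2*+/+ mouse 595 (0.58) or *Tarsl2*-/- mouse 589 (0.60).

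*Angptl4*, a secreted inhibitor of lipoprotein lipase, was at 20.4, 16.5 and 10.8 CPM in *Tarsl2*+/+ and at 29.8, 47.9 and 29.1 CPM in *Tarsl2*-/- mice. Mouse 589, the highest, was also the mouse with the highest adipocyte markers, and the part of adipocytes in this value was not tested. The log2 fold change was 1.16 (SE 0.23, edgeR's adjusted p 0.0268), and the call was lost without mouse 589 (0.90) or *Tarsl2*+/+ mouse 595 (0.94). *Nr1d1*, a clock repressor, was at 17.1, 19.8 and 17.3 CPM in *Tarsl2*+/+ and at 10.9, 12.3 and 11.9 CPM in *Tarsl2*-/- mice, so all 3 *Tarsl2*-/- mice were below. Its log2 fold change was -0.63 (SE 0.11, edgeR's adjusted p 0.0174), and the call was lost without mouse 583 (-0.67), 588 (-0.58) or 591 (-0.64). *Dusp1*, a phosphatase and early receptor target picked for mention after its value was seen, overlapped between groups with a log2 fold change of -0.29 (edgeR's adjusted p 0.158).

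Of the 20 targets tied to muscle wasting, 2 were called higher, *Foxo4* and *Fbxo31*, and 0 lower by edgeR, beside 0.896% and 1.37% of all tested genes. DESeq2 called 4 higher and 0 lower, beside 2.14% and 2.82%. The median log2 fold change of the 20 was 0.11. At an unadjusted p under 0.05 by edgeR, 7 were higher and 3 lower, beside 9.57% and 10.2% of all tested genes. *Mt3*, named after its value was seen, had the lowest log2 fold change of the 20, -0.52 (edgeR's adjusted p 0.0915). *Foxo4*, a forkhead factor, was at 47.0, 52.0 and 44.0 CPM in *Tarsl2*+/+ and at 65.9, 66.9 and 67.8 CPM in *Tarsl2*-/- mice, with no overlap and a log2 fold change of 0.49 (SE 0.087, edgeR's adjusted p 0.0174). *Fbxo31*, a ubiquitin-ligase subunit, was at 64.0, 63.2 and 56.5 CPM against 75.6, 98.2 and 94.7 CPM, again with no overlap and a log2 fold change of 0.55 (SE 0.11, edgeR's adjusted p 0.0269). Both calls were lost without mouse 583, 595, 589 or 591, with log2 fold changes of 0.43 to 0.56 for *Foxo4* and 0.48 to 0.65 for *Fbxo31* over the 6 fits. The best known ligases of muscle wasting did not pass the main test, and both were named after their values were seen: *Fbxo32* (atrogin-1) had a log2 fold change of 0.78 (edgeR's adjusted p 0.0676) and *Trim63* (MuRF1) one of 0.28 (adjusted p 0.36). *Fbxo32* was at 26.8, 18.9 and 30.0 CPM in *Tarsl2*+/+ and at 49.1, 30.1 and 50.8 CPM in *Tarsl2*-/- mice, and without mouse 589 it passed, at 0.99 with an adjusted p of 0.0211 by edgeR. *Fbxo32* was also called by DESeq2 (adjusted p 0.00244), but not with limma-voom (adjusted p 0.0777). With no filter on low counts edgeR called it too (adjusted p 6.39e-10). That fit gave *Fbxo32* an SE of 0.11, against 0.20 in the main fit, and called 1437 genes, against 342. Its adjusted p is therefore not read as added support.

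Enzymes of amino acid breakdown, and a kinase that acts on them, listed here as linked to KLF15 had mostly positive log2 fold changes, in 13 of the 15 tested. Whether KLF15 controls each of them was not tested. Of these, 2 were called higher and 0 lower by edgeR, 8 higher by DESeq2, and 11 had an unadjusted p under 0.05 as higher, beside 0.896%, 2.14% and 9.57% of all tested genes, with a median log2 fold change of 0.44. In 10 of the 15 all 3 *Tarsl2*-/- mice lay above the 3 controls, which held for 12.6% of all tested genes. The list was written with earlier results of these data known, so nothing is read from these shares. *Bckdhb*, a subunit of the branched-chain ketoacid dehydrogenase, was at 24.6, 23.7 and 19.9 CPM in *Tarsl2*+/+ and at 30.4, 43.2 and 31.9 CPM in *Tarsl2*-/- mice (log2 fold change 0.63, SE 0.14, edgeR's adjusted p 0.0418). *Auh*, an enzyme of leucine breakdown, was at 60.3, 60.2 and 55.7 CPM against 71.5, 75.4 and 83.4 CPM (log2 fold change 0.39, SE 0.088, edgeR's adjusted p 0.0472). *Bckdhb* lost its call without mouse 583, 595, 589 or 591 and *Auh* in each of the 6 fits that left out 1 mouse, and over those fits the calls in the list ranged from 0 to 5, with 0 without mouse 583, 595, 589 or 591, 1 without 588 and 5 without 584. Mouse 589, which had the highest adipocyte markers, was the highest *Tarsl2*-/- mouse in 11 of the 15 enzymes, and the part of adipocytes in these values was not tested.

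Among the 19 tested partners of SGK1 and REDD1, 0 were called higher and 1 lower by edgeR, beside 0.896% and 1.37% of all tested genes. The median log2 fold change of these partners was 0.17. The lower gene was *Nedd4l*, the ubiquitin ligase that SGK1 phosphorylates, at 18.7, 19.7 and 21.2 CPM in *Tarsl2*+/+ and 13.4, 14.3 and 12.5 CPM in *Tarsl2*-/- mice. The groups did not overlap, and its log2 fold change was -0.57 (SE 0.10, edgeR's adjusted p 0.0194), with the call lost without mouse 583 (-0.61), 595 (-0.52), 588 (-0.57) or 591 (-0.52). Some paralogs were listed for the 10 genes other than *Nr3c1*, *Sgk1* and *Ddit4*. The 24 paralogs tested gave 0 calls by edgeR and 1 by DESeq2, beside 2.27% and 4.96% of all genes each tool tested. An unadjusted p under 0.05 was found for 2 of them, beside 19.8% of all tested genes. Their log2 fold changes ran from -0.23 to 0.41 around a median of -0.015. *Arrdc4*, another alpha-arrestin, was at 0.41 with an adjusted p of 0.0732 by edgeR.

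The other inputs to these genes were also counted. Of 13 tested p53 targets, 0 were called by edgeR and 0 by DESeq2, 5 had an unadjusted p under 0.05 as higher and 3 as lower, beside 9.57% and 10.2% of all tested genes, and the median log2 fold change was 0.034. Of 13 tested genes that rise in fasted muscle, 3 were called higher and 0 lower by edgeR, beside 0.896% and 1.37% of all tested genes, and 6 higher by DESeq2, beside 2.14%, with a median of 0.33. Of these 13, *Pdk4*, *Angptl4*, *Fbxo32*, *Trim63*, *Foxo1*, *Foxo3* and *Eif4ebp1* are also among the glucocorticoid targets above, so the lists do not count separate genes. As with the other lists, nothing is read from these shares. The calls by edgeR were *Pdk4*, *Angptl4* and *Ucp3*, a mitochondrial carrier of fatty acid metabolism. *Ucp3* was at 38.4, 42.1 and 40.6 CPM in *Tarsl2*+/+ and 111, 97.6 and 87.3 CPM in *Tarsl2*-/- mice (log2 fold change 1.29, SE 0.10, edgeR's adjusted p 0.00036). *Pdk4* and *Ucp3* were called in each fit that left out 1 mouse.

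**Figure D4:**
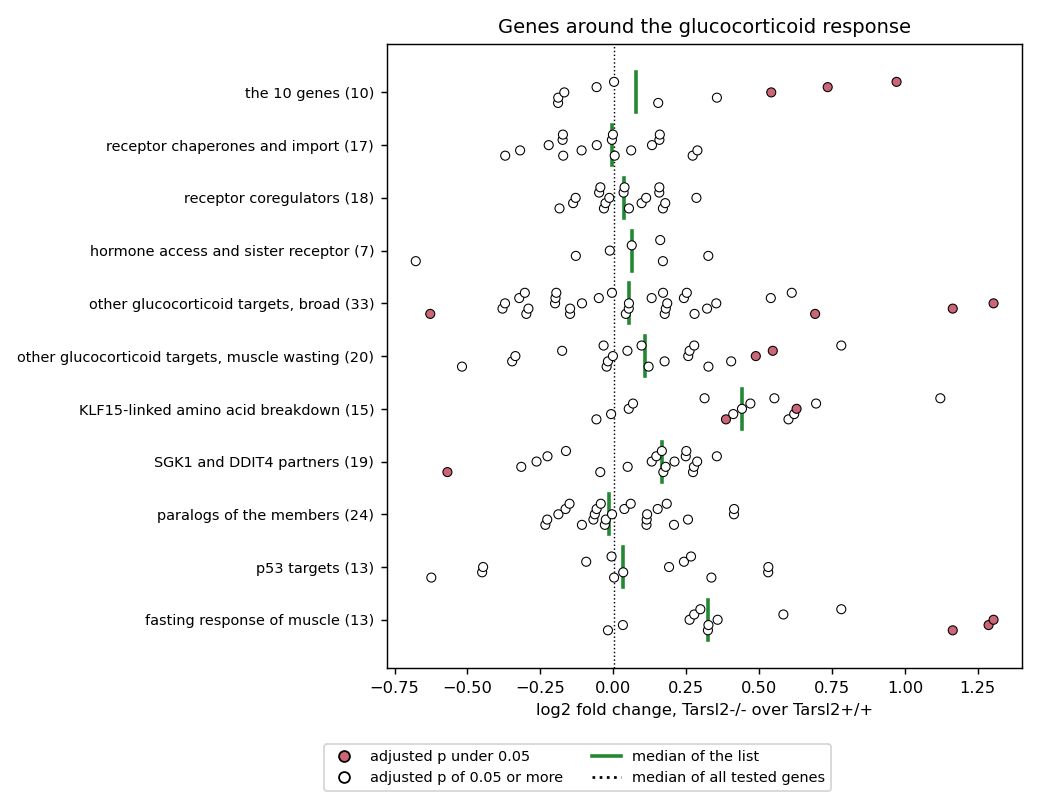
Log2 fold change of *Tarsl2*-/- over *Tarsl2*+/+ (x axis) for each tested gene of the 10 and of 10 related lists (y axis, number tested in brackets), with filled points for an adjusted p under 0.05, a green line for the median of each list and a dotted line for the median of all tested genes. The KLF15-linked (0.44) and fasting (0.33) lists have the medians farthest from the dotted line. No filled point is in the 3 lists of receptor machinery, the paralogs or the p53 targets.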

How the data were processed

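Polyadenylated RNA of 6 muscle libraries was sequenced, and the authors deposited 1 table of whole-number counts per gene and library, with gene coordinates and lengths. The submitters' processing notes name Bowtie 0.12.2 and the build mm8, whereas the study's methods name HISAT2 and mm10. The coordinates in the table are those of GRCm38 (mm10), with 6 of the 10 genes identical to GENCODE vM21, so that build is used here. The counting tool, its annotation release and its use of strand are not given in the sources used here, and fold changes of overlapping genes depend on them.

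Genes were kept by filterByExpr of edgeR (minimum count 10 and minimum total 15), scaled by TMM and fitted with glmQLFit and glmQLFTest (edgeR 4.0.16, R 4.3.3) for *Tarsl2*-/- against *Tarsl2*+/+, with Benjamini-Hochberg adjustment over all 15075 tested genes and a threshold of 0.05. Standard errors and 95% intervals come from that fit. Log2 CPM used a prior count of 2. Totals of 16176591 to 20123767 counts allow, at a count of 0, levels of up to 0.149 to 0.185 CPM (3 counts), and without molecular identifiers this covers counting error only. The code was tested on simulated data in which changed genes moved by a log2 fold change of 1 in size. None of the 10 genes had a fitted change that large, and smaller changes were not simulated. The code called 77% to 82% of the changed genes, and 5.6% to 12.0% of its calls were unchanged genes. Calls close to the threshold of 0.05 are therefore to be read with caution.

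The 10 genes and all lists were chosen with earlier results of these data known. Named were the 10 genes, *Tarsl2*, genes of each list with an adjusted p under 0.05 (at most 4), the paralogs by their range, the 3 genes nearest to *Fkbp5* and to *Klf15* by correlation (mean log2 CPM of at least 3), and markers by their sum, other genes being named as exceptions. Lists share 7 genes. Alternatives were DESeq2 1.42.0, limma-voom 3.58.1, RLE and upper quartile scaling, no filter, at least 10 counts in every library, an added log2 fold change of at least 1, and leaving out each mouse. List counts and non-member genes were added to the alternatives after seeing the data. Replicates are separate mice. Promoter sequences and start sites are from RefSeq on GRCm38.p6. One library title is spelled unlike the others of its group (KOT1-589) and was grouped by its genotype label. A list of circadian clock genes was counted but is not reported here.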

Additional observations from a re-analysis of the deposited data

How the results depend on the processing

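Over all genes, 342 calls became 719 with DESeq2 (310 higher, 409 lower), 1437 with no filter, 90 with an added log2 fold change of at least 1, and 81 to 625 when 1 mouse was left out. The count of the 10 genes called, 3, became 0 with the added log2 fold change of at least 1, which *Arrdc2* missed at 0.97, and 2 with limma-voom and with upper quartile scaling, and ranged from 1 to 3 when 1 mouse was left out. Of the other glucocorticoid targets, 6 calls became 15 with no filter and 2 with the added log2 fold change, and 2 to 7 when 1 mouse was left out. In the receptor machinery 0 calls became 2 with no filter, both lower, and were 0 in each fit that left out 1 mouse. *Tarsl2* ranged from -3.91 to -3.69.

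Among the 10 genes, the sign turned only for genes that were not called. *Nr3c1* was at -0.019 with upper quartile scaling, -0.000882 with no filter and -0.000124 where all libraries needed 10 counts, and ranged from -0.030 to 0.053 when 1 mouse was left out. *Fkbp5*, at -0.13 to 0.062 over the fits that left out 1 mouse, turned without mouse 595, and *Zbtb16*, at -0.14 to 0.34, without mouse 591. Of the alternative values of the 10 genes, 102 kept direction and side of the threshold, 9 kept direction but lost the call, and 9 turned sign. No scaling moved the median of all genes by over 0.1. The cause of these changes was not tested. No paired analysis was made, because the sample labels used here give no litter or other pairing of the mice. With 3 mice a group, a gene such as *Zbtb16*, with a 95% interval from -0.29 to 0.60, could differ by an amount that these libraries cannot show.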
